A study of Mus musculus with 6 samples.

Results

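Kinesins are motor proteins that walk along, or take apart, microtubules by hydrolysing ATP. One set builds and moves the spindle and completes cytokinesis, and its genes are mostly expressed by dividing cells, while another set carries vesicles, organelles and ciliary cargo in nearly all cells and is most varied in neurons. Adult liver divides little, whereas an epithelioid hemangioendothelioma (EHE) is a tumour of endothelial cells. The kinesin genes were all genes whose symbol in the deposited files was Kif followed by a number and optional lower-case letters, or Kifc followed by a single digit, which gave 42 of the 55401 genes counted. Of these, 41 encode proteins of the kinesin family, grouped by textbook role into 13 mitotic, 15 transport and 13 other kinesins (cilium, signalling, microtubule dynamics and less studied members). The remaining match, Kif16bos, is an RNA antisense to Kif16b and had 0, 2 and 0 counts in tumours 1 to 3 and 0 in each liver.

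No measured value let a gene into the family. The family, and its split into mitotic and transport motors, were nevertheless proposed with earlier tumour and liver results of these data known, so the class counts and medians below are descriptions and support nothing by themselves, and p-values are those of single genes in a fit over all genes. The study profiled polyadenylated RNA of 3 EHE tumours that lay on the peritoneal surface and of 3 livers, all from C57BL6 mice and described in the series title as a genetically engineered model. The sources used here give neither the alleles, the promoter that drives them, age, sex or any treatment nor whether each sample is a different animal. The p-values therefore speak only to the spread among these 6 libraries, which could be technical. Tumour state and tissue differ together, and their contributions cannot be told apart.

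Libraries held 33881392 to 40277346 counts. The 10 endothelial markers summed to 2228 to 3986 CPM (counts relative to library size, scaled by TMM, which equalises the bulk of genes between libraries) in tumours and 221 to 289 in livers, and the 10 hepatocyte markers to 3.5 to 7.14 in tumours and 161750 to 234660 in livers. Skeletal muscle markers were present in every tumour, at 1615, 12378 and 2811 CPM in tumours 1 to 3 against 1.49 to 2.34 in livers. Liver 2 stood apart with counts for 33274 genes, against 19767 and 19001 in livers 1 and 3.

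Scaling decides the direction of small changes. The median log2 fold change (tumour minus liver) of all 17387 genes tested was 0.10 with TMM and 1.38 when libraries were scaled by their totals alone, a shift of 1.28 for all genes, and changes below are relative to the TMM scaling.

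The mitotic kinesins moved together, as described below, and the 250 bases before their annotated starts were searched on both strands for TTTGAA (the core of the cell cycle homology region, bound by the DREAM and MuvB complexes), CCAAT (bound by NF-Y) and TTCCCGCC (a form of the E2F site). Kif11 and Kif22, mitotic motors that held both of the first motifs, are shown beside Kif1c, the highest transport kinesin per length, with matches on either strand in capitals (RefSeq starts, GRCm38.p6, 5′ to 3′ in the direction of transcription). No matches overlapped in these windows.
Kif11 (chr19:37376132-37376381, plus strand): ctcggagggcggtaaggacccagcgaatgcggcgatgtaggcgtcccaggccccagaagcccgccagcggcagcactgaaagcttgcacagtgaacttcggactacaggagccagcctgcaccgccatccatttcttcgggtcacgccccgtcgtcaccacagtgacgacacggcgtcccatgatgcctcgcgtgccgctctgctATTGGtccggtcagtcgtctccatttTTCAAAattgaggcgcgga
Kif22 (chr7:127042421-127042670, minus strand): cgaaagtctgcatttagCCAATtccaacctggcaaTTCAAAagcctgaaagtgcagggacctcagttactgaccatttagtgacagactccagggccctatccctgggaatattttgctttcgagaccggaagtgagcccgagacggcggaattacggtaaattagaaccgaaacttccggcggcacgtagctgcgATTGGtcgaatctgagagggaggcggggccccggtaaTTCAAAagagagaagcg
Kif1c (chr11:70700298-70700547, plus strand): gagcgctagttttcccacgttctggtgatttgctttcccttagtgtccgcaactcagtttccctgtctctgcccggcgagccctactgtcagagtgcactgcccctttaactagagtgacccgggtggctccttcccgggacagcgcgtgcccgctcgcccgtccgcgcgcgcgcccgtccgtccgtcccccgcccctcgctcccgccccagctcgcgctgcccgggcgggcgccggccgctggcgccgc

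In Kif11 the reverse complement of CCAAT began 45 bases before the start and that of TTTGAA 19 bases before it. Kif22 had the same order, with CCAAT reversed at 54 bases and TTTGAA reversed at 17 bases, and a further match of each near the far end of its window. The Kif1c window held none of the 3 motifs. Among 12 mitotic kinesins with a window in the RefSeq table, 5 held TTTGAA and 8 held CCAAT, compared with 1 and 3 of 10 transport kinesins. Over the 27025 genes of the table, 18.3% held TTTGAA and 37.5% held CCAAT. By GENCODE coordinates some windows lay partly or wholly inside the gene rather than before its start. Kif14 starts at 136466343, and its window at 136467598. Kif2c (minus strand) starts at 117182639, and its window ends at 117179022. Kif1a (minus strand), the transport kinesin with TTTGAA, starts at 93101951, and the window with that match ends at 93082730. Kif22 (minus strand) starts at 127042471, and its window reaches down to 127042421. Its TTTGAA match at 17 bases therefore lies inside the gene, and its CCAAT match at 54 bases spans the GENCODE start. Kif15 starts at 122951046 and its window ends at 122951080, so its TTTGAA match at 19 bases lies inside. The Kif4 window, with CCAAT, starts at 100625815, after the gene's start at 100625737. TTCCCGCC was in none of the 12 mitotic windows and in 2.13% of all genes. These 12 genes are not the 12 tested below. They include Kif2b, which held CCAAT but had no counts in tumours, and lack Kif20a, which had no window. A match describes letters, not binding, and a window without one says only that these letters are not in it.

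Mitotic kinesins were higher in tumours as a class. All 12 that passed the low-count filter rose (edgeR's quasi-likelihood test, adjusted p under 0.05 over all genes tested), and the 13th, Kif2b, a kinesin-13, had 5 counts in liver 2 and 0 in the other 5 libraries. Of all genes tested, 29.5% were called higher and 28.7% lower. The median log2 fold change of the 12 was 3.11, with a range of 1.60 to 4.02, beside 0.10 over all genes. In bulk tissue more dividing cells and more RNA per cell cannot be told apart. The mitotic kinesins summed to 141, 65.2 and 66.3 CPM in tumours 1, 2 and 3, against 8.68, 11.3 and 12.4 CPM in livers 1, 2 and 3. Every tumour thus exceeded every liver, and tumour 1 stood above the other 2.

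**Figure D1:**
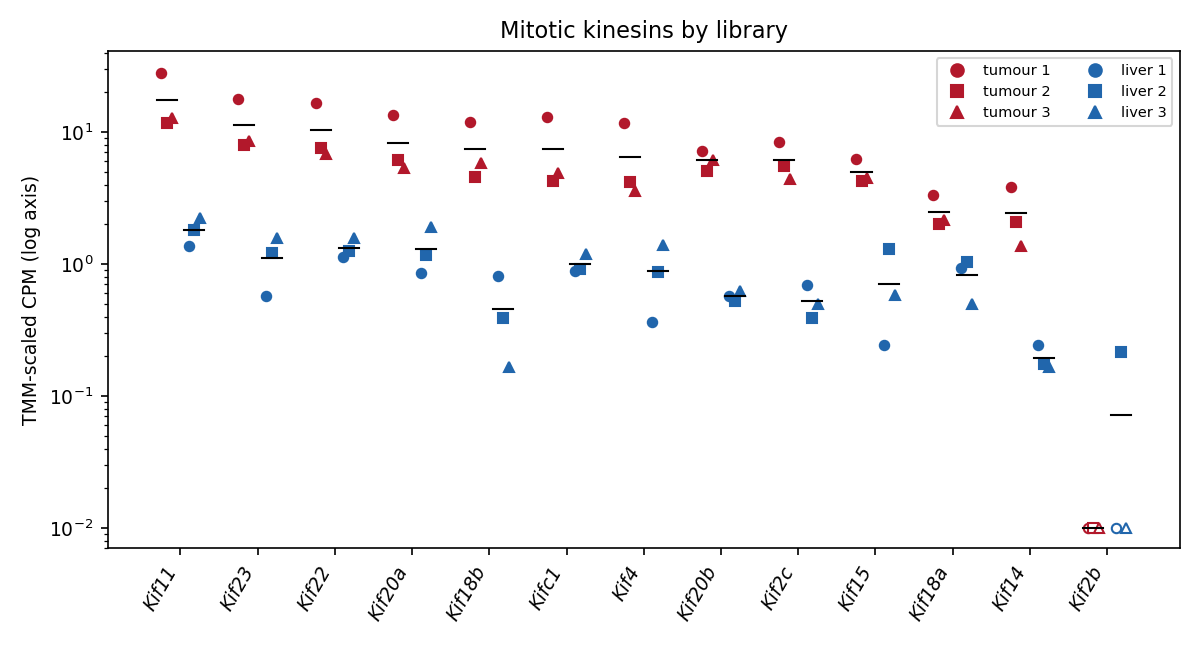
TMM-scaled CPM (log axis) of the 13 mitotic kinesins in each of 3 tumours (red) and 3 livers (blue), with group means as bars and open symbols for 0 counts, drawn at 0.01. Except for Kif2b, which had counts only in liver 2, the 3 tumours lie above the 3 livers for every gene. Of all genes tested, 35.1% do so. Tumour 1 (circles) is the highest tumour for each gene other than Kif2b.

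Motors that build the spindle come first, with values in the order of libraries 1, 2 and 3 of each group. Kif11 (ENSMUSG00000012443, chromosome 19, 37376403 to 37421859, GRCm38), the kinesin-5 that slides antiparallel microtubules apart to separate the poles, had 27.8, 11.7 and 12.8 CPM in tumours and 1.38, 1.82 and 2.23 in livers. The lowest tumour lay well above the highest liver, and the log2 fold change was 3.27 (SE 0.43, edgeR adjusted p = 0.000692). Kif15, a kinesin-12 that can maintain bipolar spindles beside Kif11, had 6.22, 4.24 and 4.49 CPM in tumours and 0.243, 1.3 and 0.578 in livers. Its rise of 2.82 (SE 0.62) was 3.62 without liver 2, which held the most counts among livers. Kifc1, a kinesin-14 that moves towards minus ends and focuses spindle poles, had 13.05, 4.26 and 4.89 CPM in tumours and 0.892, 0.910 and 1.20 in livers, a rise of 2.88 (SE 0.54) that was 2.2 without tumour 1. Its near-identical paralog Kifc5b had 129, 88 and 67 counts in tumours and 11, 3 and 11 in livers, and reads may be split between them.

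Chromosome arms and microtubule ends are served by the next group. Kif22, a chromokinesin also called Kid, had 16.5, 7.52 and 6.83 CPM in tumours and 1.14, 1.26 and 1.57 in livers (log2 fold change 2.96, SE 0.44). Kif4, the chromokinesin that works with PRC1 at the midzone, had 11.7, 4.20 and 3.54 CPM in tumours and 0.365, 0.867 and 1.40 in livers. Tumours 2 and 3 lay closer to liver 3 for Kif4 than tumour 1 did, and its rise of 2.88 (SE 0.69) was 2.15 without tumour 1. Kif2c, the kinesin-13 MCAK that depolymerises microtubules at kinetochores, had 8.47, 5.49 and 4.44 CPM in tumours and 0.689, 0.390 and 0.495 in livers (log2 fold change 3.54, SE 0.44). The kinesin-8 pair, which limits microtubule length, spanned the range of the class. Kif18b had 11.97, 4.60 and 5.82 CPM in tumours and 0.811, 0.390 and 0.165 in livers, the largest rise of the class at 4.02 (SE 0.68; 4.76 without liver 1). Kif18a, which dampens chromosome movements at the metaphase plate, had 3.32, 2.02 and 2.15 CPM in tumours and 0.933, 1.04 and 0.495 in livers, the smallest rise at 1.60 (SE 0.48, edgeR adjusted p = 0.0235). That call was lost without tumour 1 (adjusted p = 0.0868), without liver 1 (0.0572) and without liver 3 (0.0709), where the log2 fold changes were 1.35, 1.72 and 1.36.

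The motors of cytokinesis rose as well. Kif23 (MKLP1), the motor of the centralspindlin complex, had 17.7, 7.91 and 8.48 CPM in tumours and 0.568, 1.21 and 1.57 in livers (log2 fold change 3.35, SE 0.52, edgeR adjusted p = 0.00149). Kif20a (MKLP2), which brings the chromosomal passenger complex to the midzone, had 13.6, 6.10 and 5.31 CPM in tumours and 0.852, 1.17 and 1.90 in livers (log2 fold change 2.67, SE 0.52). Kif20b, a relative that acts at the midbody, had the smallest standard error of the class, with 7.22, 5.09 and 6.17 CPM in tumours and 0.568, 0.520 and 0.619 in livers (log2 fold change 3.43, SE 0.35). Kif14, the kinesin-3 that binds citron kinase, was the lowest of the 12 per length, at 0.269 to 0.548 FPKM in tumours, with 3.82, 2.07 and 1.36 CPM in tumours and 0.243, 0.173 and 0.165 in livers (log2 fold change 3.62, SE 0.60). None of these 4 genes overlapped between groups, where 35.1% of all genes tested lay higher in tumours without overlap. Exons of Kif20a share 1271 bases with Cdc23 on the other strand and those of Kif4 share 832 with Pdzd11, genes that had 1496 to 2048 and 616 to 1214 counts in tumours, so without strand information their reads cannot be told apart.

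Tumour 1 was the highest tumour for 12 of the 12 tested mitotic kinesins and for all 26 of a list of other mitosis genes, compared with 32.5% of all tested genes and 40.8% of those called higher. Those 26 genes, which include cyclins, kinases, checkpoint and chromosomal passenger genes, all rose. Their median log2 fold change was 3.68, led by the checkpoint kinase gene Bub1 at 4.94 (SE 0.59). Of all genes tested, 29.5% were called higher, and the median log2 fold change was 0.10. The 26 genes summed to 756, 308 and 354 CPM in the tumours, against 40.8, 52.7 and 43.1 in the livers. The mitotic kinesin sum was 18.7%, 21.2% and 18.8% of that sum in tumours and 21.3%, 21.4% and 28.7% in livers, so each liver lay above each tumour in this ratio, the closest by a small margin (liver 1 and tumour 2). That difference was not tested. Within the class Kif11 made up 17.9% to 19.6% of counts in tumours and 15.9% to 18% in livers, whereas Kif18a made up 2.35% to 3.24% and 4% to 10.7%. Cenpe, the kinetochore kinesin-7 and a member of the list of 26, carries no Kif symbol. It had 13.8, 6.44 and 7.10 CPM in tumours and 0.243, 0.694 and 0.702 in livers (log2 fold change 4.06, SE 0.55).

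**Figure D2:**
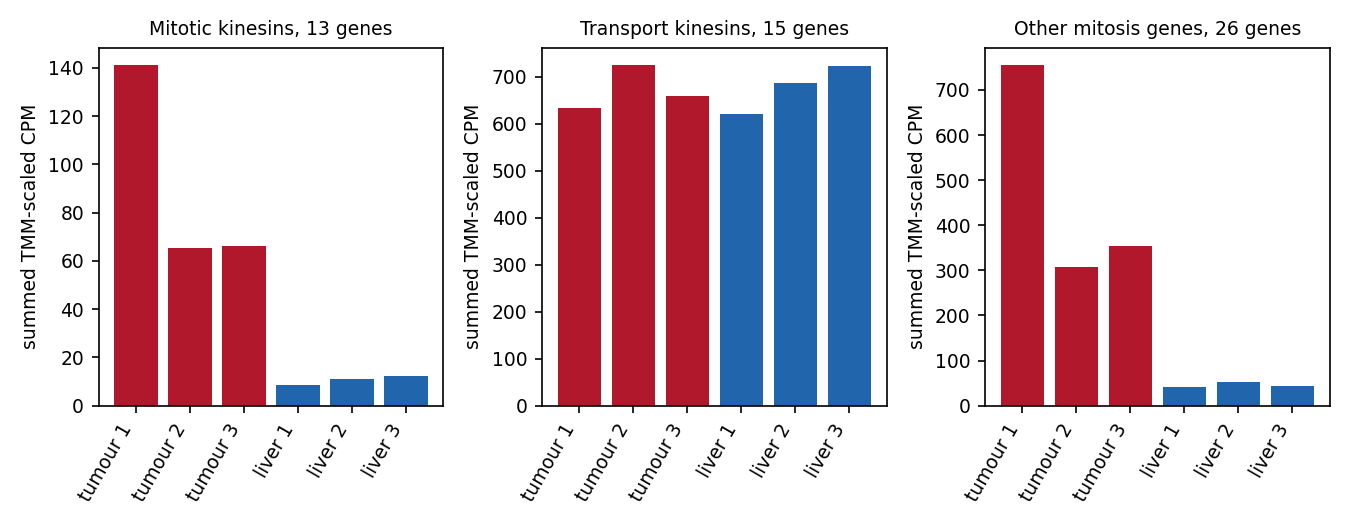
Summed TMM-scaled CPM per library for mitotic kinesins, transport kinesins and 26 other mitosis genes, with tumours in red and livers in blue and an axis of its own for each panel. Mitotic kinesins reach 141, 65.2 and 66.3 CPM in tumours against 8.68 to 12.4 in livers, whereas the transport sums overlap between groups at 621 to 725 CPM.

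Transport kinesins did not move one way. All 15 passed the low-count filter, and 6 rose, 2 fell and 7 were not called, with a median log2 fold change of 0.24 beside 0.10 over all genes. That median was 0.88 without liver 2 and 0.40 without tumour 2, where 6 were again called higher and 2 lower. Over all genes, 5150 were then called higher and 4514 lower without liver 2, and 5079 and 5178 without tumour 2. The shares called, 40.0% higher and 13.3% lower, compare with 29.5% and 28.7% of all genes. Their sum of 633, 725 and 660 CPM in tumours 1, 2 and 3 overlapped that of 621, 686 and 722 CPM in livers 1, 2 and 3. With libraries scaled by totals alone 10 rose and none fell, where 10688 of all genes rose and 2172 fell. With limma on log2(FPKM + 1) 8 of those tested rose and none fell, where 8613 of all genes rose and 2031 fell.

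**Figure D3:**
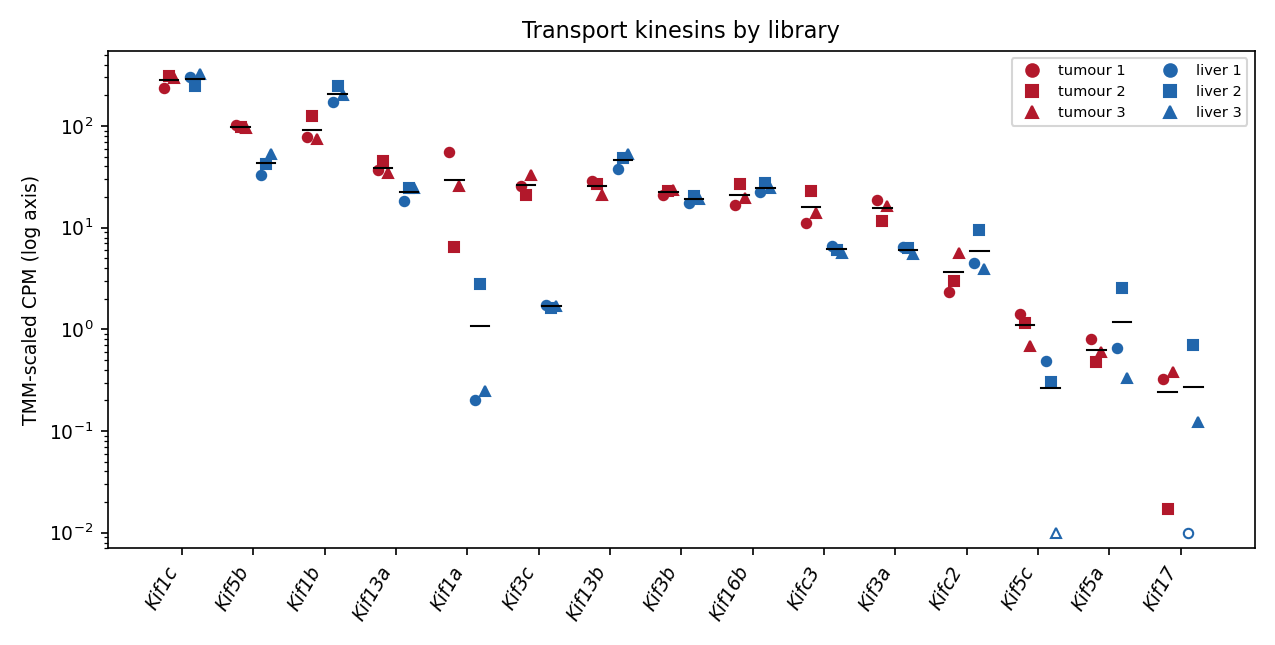
TMM-scaled CPM (log axis) of the 15 transport kinesins in each of 3 tumours (red) and 3 livers (blue), with group means as bars and open symbols for 0 counts, drawn at 0.01. Kif1c overlaps between groups, Kif3c and Kif1a lie far higher in tumours, and Kif1b and Kif13b lie lower.

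Among the kinesin-1 heavy chains, the conventional motors for vesicles and mitochondria, Kif5b, the form found in most tissues, was the highest per length in every library. It had 101, 98.0 and 96.0 CPM in tumours and 32.9, 41.9 and 53.5 in livers, a rise of 1.20 (SE 0.21, edgeR adjusted p = 0.00219). The 3 tumours lay close together and all exceeded the livers. The neuronal forms were near the limit of detection. Kif5a had 0.802, 0.479 and 0.593 CPM in tumours and 0.649, 2.56 and 0.330 in livers (log2 fold change -0.91, SE 0.80, not called), with liver 2 the highest, and 0.37 without that liver, again not called. Kif5c had 1.42, 1.16 and 0.690 CPM in tumours and 0.487, 0.303 and 0 in livers (log2 fold change 2.04, SE 1.00, edgeR adjusted p = 0.121).

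Kinesin-1 binds cargo through light chains, of which Klc1, Klc2 and Klc3 rose and Klc4 fell. Klc2 rose by 0.86 (SE 0.20), and Klc3 is given below. Klc1 had 101, 85.4 and 105 CPM in tumours and 12.3, 18.5 and 15.6 in livers (log2 fold change 2.65, SE 0.21), while Klc4 had 11.4, 16.3 and 12.4 in tumours and 99.6, 80.5 and 71.9 in livers (log2 fold change -2.65, SE 0.21). Without correction for length, Klc1 made up 67.0% to 75.4% of light chain counts in tumours and 10.1% to 16.9% in livers, and Klc4 8.51% to 12.8% and 73.1% to 81.6%. The light chain sum was 128 to 140 CPM in tumours and 98.4 to 122 in livers. Klc4 stayed lower under totals-only scaling (log2 fold change -1.37, adjusted p = 0.00102).

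The kinesin-2 motors drive transport in cilia and along axons. Kif3a and Kif3b form a heterodimer with the adaptor Kifap3. Kif3a had 18.6, 11.5 and 16.5 CPM in tumours and 6.45, 6.37 and 5.45 in livers, a rise of 1.35 (SE 0.25, edgeR adjusted p = 0.00307). Kif3b had 21.2, 22.7 and 23.6 CPM in tumours and 17.3, 20.6 and 19.1 in livers, groups that did not overlap but whose difference did not pass (log2 fold change 0.24, SE 0.16, edgeR adjusted p = 0.223). Kif3c (ENSMUSG00000020668, chromosome 12, 3365132 to 3406494), the alternative partner of Kif3a known best from neurons, had 25.8, 20.9 and 32.8 CPM in tumours and 1.74, 1.60 and 1.69 in livers. Its rise of 3.98 (SE 0.25, edgeR adjusted p = 2.78e-05) exceeded that of Kif3a, and leaving out any 1 library kept it between 3.80 and 4.13. Kif3c exons share 2617 bases with the antisense gene 1110002L01Rik, which had 58 to 94 counts in tumours and 31 to 34 in livers beside 1220 to 2045 and 37 to 43 counts of Kif3c. Kif17, a homodimeric kinesin-2 of dendrites and cilia, had 20, 1 and 24 counts in tumours and 0, 16 and 3 in livers (log2 fold change -0.15, SE 1.39, not called), and the difference was 1.96 and again not called without liver 2.

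The kinesin-3 motors, fast carriers of vesicles, held the most abundant member and the widest spread. Kif1c, which carries dense-core vesicles and integrins, had 235, 313 and 295 CPM in tumours and 301, 247 and 327 in livers, so that both groups spanned the same range (log2 fold change -0.05, SE 0.23, edgeR adjusted p = 0.859). Its sign depends on scaling, since library totals alone gave 1.24 (adjusted p = 0.0020), which is -0.14 relative to the median gene under that scaling. Kif1b, a carrier of mitochondria and synaptic vesicle precursors, had 77.7, 125 and 73.8 CPM in tumours and 171, 247 and 203 in livers, a fall of 1.17 on the log2 scale (SE 0.27, edgeR adjusted p = 0.00917). Kif13b, also called GAKIN, had 28.7, 27.0 and 21.0 CPM in tumours and 38.0, 48.1 and 52.4 in livers, and fell by 0.85 (SE 0.20, edgeR adjusted p = 0.00825). Both falls turned to uncalled differences above 0 with library totals alone (0.10 for Kif1b and 0.42 for Kif13b), while relative to the median gene they stayed at -1.28 and -0.95. Kif13a, an endosomal and Golgi carrier, had 36.5, 45.8 and 34.5 CPM in tumours and 18.3, 24.5 and 24.7 in livers (log2 fold change 0.79, SE 0.19). Kif16b, an early endosome motor, had 16.9, 26.8 and 19.6 CPM in tumours and 22.3, 27.5 and 24.5 in livers, and did not pass (log2 fold change -0.23, SE 0.22).

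Kif1a (ENSMUSG00000014602, chromosome 1, 93015464 to 93101951), the axonal carrier of synaptic vesicle precursors, varied the most among tumours of the transport kinesins that rose. It had 55.6, 6.44 and 25.8 CPM in tumours and 0.203, 2.82 and 0.248 in livers, or 3395, 377 and 1606 counts against 5, 65 and 6. All tumours exceeded all livers, and most liver counts were in liver 2. The log2 fold change was 4.76 (SE 1.20, edgeR adjusted p = 0.0126), 7.03 without liver 2 and 3.90 without tumour 1. The call was lost with limma-voom (adjusted p = 0.0734) and with no low-count filter (adjusted p = 0.110). Of 10 neuron markers 5 were tested, 3 rose and 2 fell, and the sum of the 10 was 129, 49.5 and 133 CPM in tumours and 20.8 to 25.4 in livers. Those that fell were Syt1 (log2 fold change -8.65, SE 0.68) and Rbfox3 (-3.07, SE 0.63). Syt1 made up most of the liver sum, at 15.7, 17.9 and 23.3 CPM, and was at or below 0.068 CPM in each tumour. The tumour sum was mostly Tubb3, at 99.7, 39.4 and 114 CPM, and Uchl1, at 28.2, 6.56 and 17.0, while Snap25 had 0 counts in all 3 tumours and Nefl, Nefm and Elavl4 were at or below 0.096 CPM in each. The endothelial marker sum was 3986, 2228 and 3363 CPM in tumours 1 to 3, which is the same order of tumours as for Kif1a. The part of either cell type in the Kif1a level was not tested.

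The transport members of kinesin-14 move towards minus ends. Kifc3, which acts at adherens junctions and in apical transport, had 11.2, 22.8 and 13.8 CPM in tumours and 6.61, 6.07 and 5.65 in livers (log2 fold change 1.38, SE 0.30, edgeR adjusted p = 0.00685). Kifc2, a dendritic motor, had 2.33, 2.97 and 5.60 CPM in tumours and 4.5, 9.49 and 3.88 in livers, and did not pass (log2 fold change -0.71, SE 0.50).

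Cargo adaptors were counted as a list of 18 with the light chains. Of 17 tested, 11 rose, 1 fell and 5 did not pass, with a median log2 fold change of 0.90, and with library totals alone 16 rose and 1 fell. For these and the next 2 lists the base over all 17387 genes is 29.5% called higher and 28.7% lower, and with library totals alone 10688 genes higher and 2172 lower. Klc3 rose the most, from 0.083 to 0.173 CPM in livers to 2.77 to 5.96 in tumours (log2 fold change 4.94, SE 0.55). The opposing motor, which moves towards minus ends, is cytoplasmic dynein. Of 21 tested genes of cytoplasmic dynein 1 and dynactin, 6 rose and 4 fell with a median of 0.27 (20 rose and none fell with library totals alone). The light chain gene Dynll1 led the rises at 2.07 (SE 0.39) and its paralog Dynll2 the falls at -1.45 (SE 0.26), a fall not called with library totals alone (adjusted p = 0.561). Of 14 tubulin genes, 9 rose and 2 fell, led by the beta tubulin Tubb3 at 8.31 (SE 0.57) and the alpha tubulin Tuba1c at -1.20 (SE 0.25). With library totals alone 11 rose and none fell, and Tuba1c was at 0.072, while limma on log2(FPKM + 1) called Tuba1c higher (1.44). Tubulin paralogs can share reads.

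The 13 other kinesins split further, with 5 of the 11 tested called higher (45.5%), 1 called lower (9.09%) and 5 not called, beside 29.5% and 28.7% of all genes. Kif26a (ENSMUSG00000021294, chromosome 12, 112146208 to 112181747), an atypical kinesin-11 that lacks motor activity and restrains GDNF-Ret signalling in enteric neurons of the mouse, was far higher in tumours. It had 33.3, 41.5 and 38.1 CPM in tumours and 0.649, 0.954 and 0.991 in livers, which amounts to a rise of 5.44 on the log2 scale (SE 0.25, edgeR adjusted p = 1.21e-05). Both groups were tight, and leaving out any 1 library kept the change between 5.30 and 5.57. This was the largest fitted rise of the family with TMM and all libraries, but Kif1a (7.03) and Kif6 (6.33) exceeded it without liver 2, and Kif3c (3.56) and Kif2a (3.49) exceeded its 2.93 with limma on log2(FPKM + 1). Its paralog Kif26b, needed for kidney development in the mouse, had 6.55, 8.0 and 6.17 CPM in tumours and 0.162, 1.04 and 1.16 in livers (log2 fold change 3.13, SE 0.65).

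Kif2a, a kinesin-13 that depolymerises microtubules in neurons and at spindle poles, had 107, 39.2 and 106 CPM in tumours and 12.3, 15.3 and 13.6 in livers (log2 fold change 2.62, SE 0.39, edgeR adjusted p = 0.00124). Tumour 2 was the lowest of the 3 tumours and still above every liver. By difference in CPM, though not by ratio of FPKM, its level lay closer to the livers than to the other tumours. Its FPKM was 16.7, beside 44.8 and 48.9 in tumours 1 and 3 and 1.70 to 2.48 in livers. Tumour 2 was also the library with the highest skeletal muscle and the lowest endothelial marker sums given above, and the part of those cells was not tested. Kif2a exons share 1229 bases with Dimt1 on the other strand, which had 352 to 590 counts in tumours and 57 to 94 in livers.

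The kinesin-4 relatives that regulate microtubule growth went opposite ways. Kif21a (ENSMUSG00000022629, chromosome 15, 90933276 to 91049948), which slows growth at the cell cortex, had 8.09, 8.55 and 9.35 CPM in tumours and 50.5, 69.8 and 68.2 in livers. It fell by 2.86 on the log2 scale (SE 0.19, edgeR adjusted p = 3.41e-05) and was the only kinesin also called lower under totals-only scaling (-1.58, adjusted p = 0.000447) and by limma on log2(FPKM + 1) (-1.22, adjusted p = 0.000596). Kif21b, its neuronal and immune cell paralog, had 17.3, 27.5 and 13.3 CPM in tumours and 7.14, 5.64 and 4.46 in livers, a rise of 1.75 (SE 0.33). The leukocyte marker sum was 301, 899 and 185 CPM in tumours and 102 to 242 in livers, highest in tumour 2 as Kif21b was, and its part was not tested.

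The remaining kinesins, most of them known from cilia, were at or below 7.20 CPM in every library. Kif7, which acts in Hedgehog signalling at the cilium tip, had 1.31, 2.68 and 1.07 CPM in tumours and 0.446, 0.477 and 0.495 in livers (log2 fold change 1.83, SE 0.54, edgeR adjusted p = 0.0222). The Kif7 call was lost without tumour 2 (adjusted p = 0.0856) and without each of livers 1, 2 and 3 (0.0694, 0.0503 and 0.0615). Kif19a, which limits cilium length in the mouse, Kif24, a centriolar motor that restrains cilium growth, Kif6 and Kif9, motors of motile cilia, and Kif28 did not pass, with log2 fold changes from -1.21 to 1.31. Kif24 came closest, at 2.75, 1.76 and 1.56 CPM in tumours and 0.487, 1.13 and 0.826 in livers (edgeR adjusted p = 0.0570), and it passed with DESeq2 (adjusted p = 0.0207). Exons of Kif7 share 51 bases with Ticrr, which had 123 to 296 counts in tumours and 0 to 13 in livers. Kif6 had 17, 12 and 10 counts in tumours and 0, 7 and 0 in livers, and was called higher when liver 2 was left out (adjusted p = 0.0249), where the remaining livers were at 0. Kif28 had 6, 14 and 305 counts in tumours and 0, 166 and 120 in livers, and its exons share 155 bases with Ahctf1. Its difference of -1.21 was -4.55 without tumour 3 and -0.47 without liver 2, and was called in neither. Kif12, known from kidney and bile duct epithelium, had 0, 0 and 10 counts in tumours and 2, 19 and 0 in livers, and Kif27 had 4, 23 and 28 counts in tumours and 2, 4 and 0 in livers, so neither was tested.

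**Figure D4:**
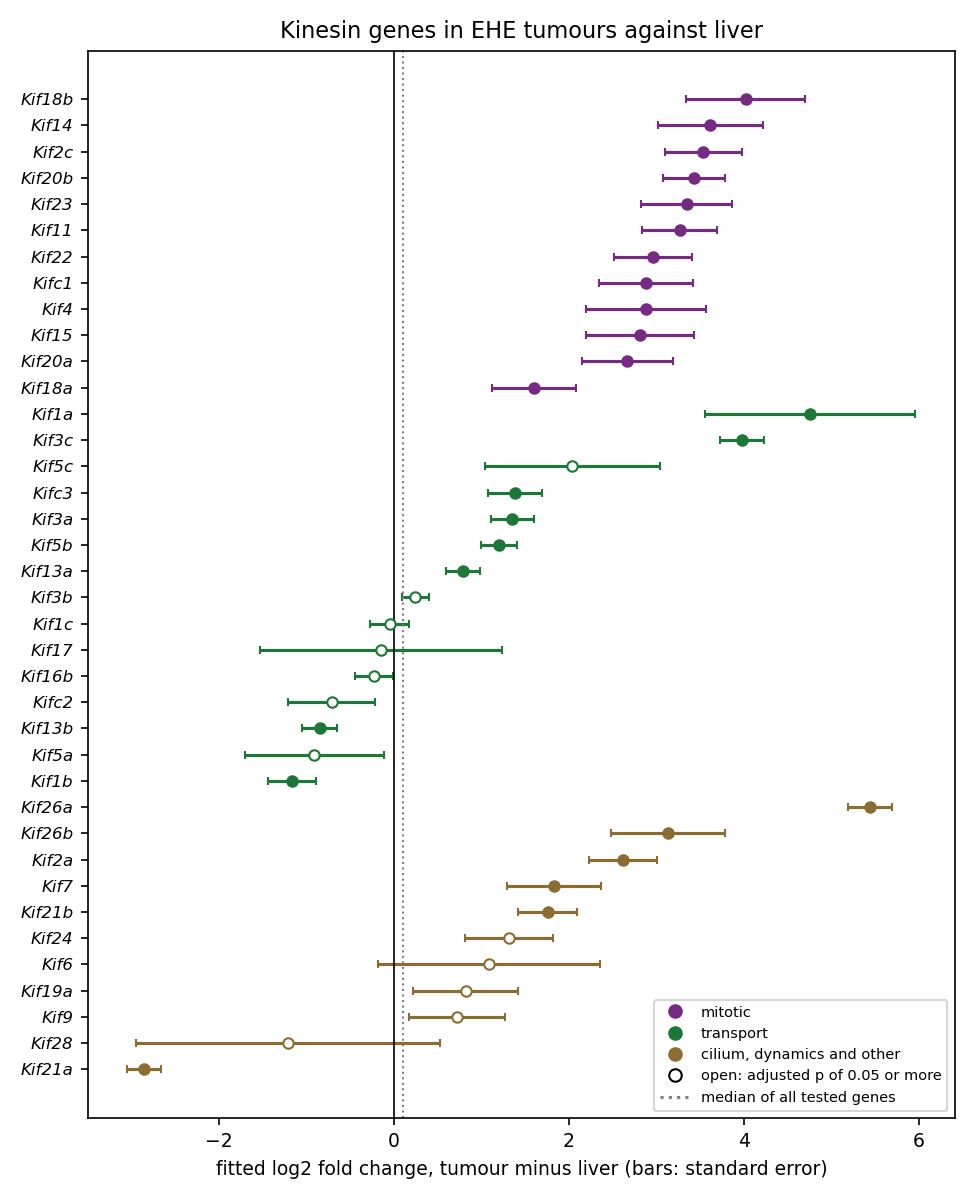
Fitted log2 fold changes (tumour minus liver, TMM scaling) of the 38 tested kinesins with standard errors as bars, grouped by class, with open circles for genes not called and a dotted line at the median of all tested genes (0.10). Mitotic kinesins lie between 1.60 and 4.02, transport kinesins between -1.17 and 4.76, and the other kinesins between -2.86 and 5.44.

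Over the family 23 of the 38 tested kinesins rose (60.5%) and 3 fell (7.89%), beside 29.5% and 28.7% of all genes, and 12 did not pass. Without tumour 1 the counts were 22 and 3 (4506 and 4442 over all genes), and without liver 2 they were 24 and 3 (5150 and 4514 over all genes). Groups did not overlap for 26 kinesins higher in tumours and 3 lower, where 35.1% and 33.1% of all genes tested did so.

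Levels of different kinesins can be compared per length with the deposited FPKM values (fragments scaled by gene length and library size). In tumours Kif1c was the highest at 59.4, 75.4 and 77.6 FPKM in tumours 1 to 3, followed by Kif2a at 44.8, 16.7 and 48.9 and Kif5b at 23.5, 22.3 and 23.7. Kif2a lay above Kif5b in tumours 1 and 3 and below it in tumour 2, so their order is not settled by these libraries. Kif1c also led in livers at 34.3, 26.7 and 36.5 FPKM, followed by Kif1b at 9.25, 13.5 and 11.7 and Kif21a at 4.39, 5.84 and 5.85. Kif2a, second by mean in tumours, had 1.70, 2.48 and 2.07 FPKM in livers and ranked 8 there, and Kif21a went from rank 3 in livers to rank 23 in tumours. Mitotic kinesins made up 21.1%, 11.1% and 10.6% of the kinesin FPKM in tumours and 3.33%, 2.02% and 4.01% in livers, and transport kinesins 57.3% to 74.2% and 82.9% to 86.5%. The highest mitotic kinesin per length was Kif22 in tumours, at 10.3, 4.57 and 4.52 FPKM. Some listed zeros may be failed estimates, since Kifc2 was listed at 0 in all 6 libraries with 94 to 349 counts, and Kif3c was listed at 0 in all livers with 37 to 43 counts. Of the mitotic kinesins, Kif4 was listed at 0 in livers 1 to 3 with 9, 20 and 34 counts. Kif18a was at 0 in livers 2 and 3 (24 and 12 counts), and Kif20a and Kif18b in liver 2 (27 and 9 counts). The shares of kinesin FPKM are therefore approximate.

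**Figure D5:**
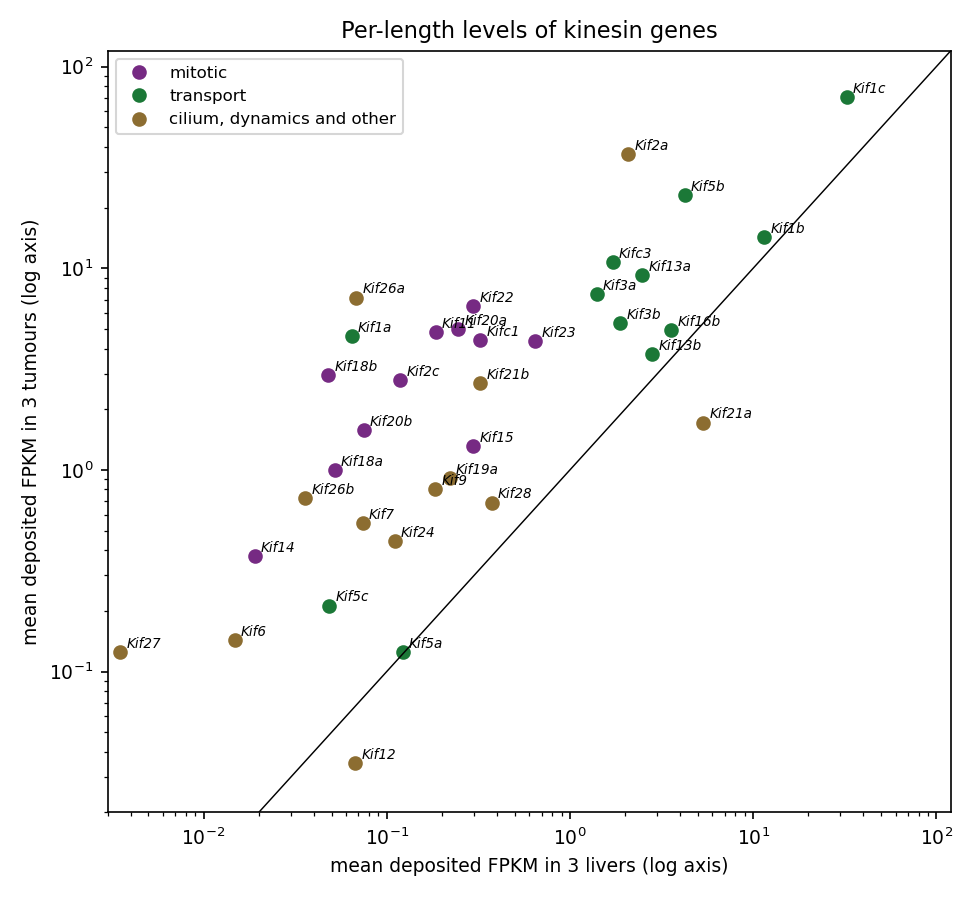
Mean deposited FPKM of kinesin genes in 3 livers (horizontal log axis) and 3 tumours (vertical log axis), coloured by class, with a line of equal values; genes with a mean of 0 in either group are left out. Kif1c is the highest in both tissues (mean 70.8 in tumours and 32.5 in livers), mitotic kinesins lie below 1 FPKM in livers, and Kif21a is the member farthest below the line.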

How the data were processed

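Polyadenylated RNA of 3 EHE tumours and 3 livers was sequenced from DNBSeq libraries, per the labels' protocols. HISAT2 2.1.0, Cufflinks 2.2.1.3 and mm10 are named in the submitters' processing notes. The authors deposited a table of raw counts for 55401 Ensembl genes, and FPKM values in 1 file per library. The counting tool, its annotation and its strand handling: not given in the sources used here. Among counts of 1 to 10, 55.0% to 70.7% were even, so both mates of a fragment may have been counted. Where an identifier had several FPKM rows (41 identifiers), only that with the highest mean entered.

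Genes were kept by edgeR 4.0.16's filterByExpr (17387), scaled by TMM and compared by its robust quasi-likelihood test in R 4.3.3, with Benjamini-Hochberg adjustment over all tested genes and calls at an adjusted p under 0.05. Each standard error is the absolute log2 change over the root of the F statistic. CPM values are TMM-scaled. Replicate libraries differed by a chi-square per degree of freedom of 95.8 or more, so none was counted as a duplicate. Alternatives used DESeq2 1.42.0 and limma 3.58.1, the latter also as voom and on log2(FPKM + 1). The main edgeR fit, DESeq2, voom and limma on log2(CPM + 1) were tested on simulated counts. Rises and falls were balanced there, so it could not test the choice of scaling. The other alternatives were not simulated. Members and lists were chosen with earlier results of these data known. Named were all mitotic and transport kinesins, other kinesins that were called, and the leading called member in each direction of each pathway list. These had to reach 1 CPM in 3 libraries. Klc1, Klc2 and the neuron markers named were added after their values were seen. Kinesins below that level or not called were also added then, to account for every member. Gene coordinates and exon overlaps are from GENCODE M21 (GRCm38), and promoter windows from RefSeq (GRCm38.p6).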

Additional observations from a re-analysis of the deposited data

How the results depend on the processing

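Mitotic kinesins called higher numbered 10 to 12 under every alternative run, with none called lower; limma on FPKM with its filter tested fewer genes. Library totals alone gave 1 kinesin called lower, 10 transport kinesins higher and 0 lower, and class medians of 4.38 (mitotic) and 1.52 (transport), with 10688 genes higher and 2172 lower over all (83.1% of calls higher, against 50.8% for 5137 and 4982). A test against a 2-fold change left 1 kinesin lower, 2 transport kinesins higher and 0 lower (3314 and 2916 over all genes). Limma on log2(FPKM + 1) gave 1 kinesin lower, 0 transport kinesins lower and medians of 1.79 and 1.56 (8613 and 2031 over all genes); treating FPKM of 0 at 100 or more counts as missing, chosen after seeing the data, gave the same values for the kinesins (8571 and 1971 over all genes), a pseudocount of 0.1 gave 1, 0, 3.84 and 1.86 (8608 and 2019), and no filter 1, 0, 1.71 and 1.12 (9370 and 2152). The transport median was 0.38 with no low-count filter, where that of all genes was -0.50, 0.78 for genes at 1 CPM or more in 3 libraries and 0.74 without libraries 2 of both groups. Leaving out each library in turn, the transport median ranged from 0.21 to 0.88 and the mitotic median from 2.70 to 3.44. In these fits 21 to 24 kinesins rose and 3 fell, and over all genes 4201 to 5150 rose and 4286 to 5178 fell.

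Differences that turned above 0 were those of Kif13b (0.42 with library totals, 0.32 with log2(FPKM + 1) and 0.41 with log2(FPKM + 0.1)), Kif1b (0.10, 0.26 and 0.28), Kif1c (1.24, 1.10 and 1.13, now called), Tuba1c (0.072, 1.44 and 1.46) and, with library totals alone, Kif16b (1.04, now called); the FPKM alternatives without the filter and with missing values gave these same FPKM values. The cause of the FPKM differences was not tested. A sign change of a gene called under neither setting was not counted as a turn. The titles share replicate numbers, but deviations of same-numbered samples from their group means were uncorrelated across genes (0.019, 0.037 and -0.025). With a replicate block, 22 kinesins rose and 3 fell, beside 4516 and 4574 over all genes. In that fit 12 mitotic kinesins rose, the transport median was 0.46 and Kif7 was not called (edgeR adjusted p = 0.0575). Kinesins at low counts (Kif2b, Kif12, Kif27, Kif17, Kif6, Kif5a) are limited by depth and by liver 2.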
